A study of Mus musculus with 27 samples.

Results

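A set of 8 genes of the CXC chemokine family were followed in mouse macrophages stimulated with either lipopolysaccharide (LPS) or the cytokine interleukin-4 (IL-4). They were chosen by name, as Cxcl1, Cxcl2, Cxcl3, Cxcl5, Cxcl9, Cxcl10, Cxcl11 and Cxcl16, and made up 8 of the 45070 genes in the table. Of these, 7 passed a filter on low values (10 or more normalised read counts in 3 or more samples out of 27), as did 13901 genes in all. Cxcl5 did not pass and is given by its values alone. Only 1 of the 7, Cxcl16, reached the filter in the untreated and IL-4 samples taken alone. The other 6 passed through their LPS values, so counts of members that rose with LPS describe the genes and support nothing further.

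The cells were bone marrow-derived macrophages (BMDMs), primary macrophages grown from the bone marrow of male wild-type C57/BL6 mice 6 to 8 weeks old. All samples, controls included, were kept with DMSO, the vehicle of the inhibitors used elsewhere in the study, for 1 h. They were then left untreated or given LPS, the bacterial outer membrane component that TLR4 detects, or IL-4, a signal of type 2 immunity, each at 10 ng/ml, and taken after 0.5, 1, 2 or 4 h. This gave 9 groups of 3 replicates, in which chromatin-associated RNA, a fraction enriched for transcripts still being made, was sequenced. The sources used here do not say whether replicates were separate cultures or animals, so p-values measure the spread between these samples, which may be technical.

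CXC chemokines are small secreted proteins that draw leukocytes along a gradient. One branch, with Cxcl1, Cxcl2, Cxcl3 and Cxcl5, attracts neutrophils through the receptor Cxcr2, and its genes are known in macrophages as rapid targets of NF-κB. A second branch, Cxcl9, Cxcl10 and Cxcl11, attracts activated T cells and NK cells through Cxcr3, and is known for induction by interferons. Cxcl16 stands apart as a transmembrane chemokine that binds Cxcr6, takes up oxidised lipoprotein and is released from the cell surface by the proteases Adam10 and Adam17.

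Of the 8 genes, 7 lie on chromosome 5 (GRCm38). The neutrophil-attracting genes span 146.6 kb on the plus strand, with Cxcl5 at 90759298 to 90761625, Cxcl3 at 90786101 to 90788093, Cxcl1 at 90891245 to 90893121 and Cxcl2 at 90903899 to 90905938. The interferon-inducible genes span 41.97 kb on the minus strand, 1.42 Mb further on, with Cxcl9 at 92321331 to 92328079, Cxcl10 at 92346638 to 92348889 and Cxcl11 at 92359544 to 92363296. Cxcl16 lies on the minus strand of chromosome 11, at 70454389 to 70459984.

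The sequences just before the start sites are shown because the 2 branches are known to answer to different factors. RefSeq promoter windows (GRCm38.p6) were found for 5 of the 8 genes, Cxcl1, Cxcl2, Cxcl3, Cxcl9 and Cxcl10, and the 250 bases before each start site were searched on both strands. The motifs were the κB consensus bound by NF-κB, the interferon-stimulated response element (ISRE, here GAAA, any 2 bases, GAAA) and the STAT6 site (TTC, any 4 bases, GAA). Capitals mark the κB matches, overlapping matches being joined, and, in Cxcl10, also the ISRE match. The windows are chr5:90890995-90891244 (plus strand) for Cxcl1, chr5:90903649-90903898 (plus) for Cxcl2, chr5:90785851-90786100 (plus) for Cxcl3 and chr5:92348890-92349139 (minus) for Cxcl10.
Cxcl1: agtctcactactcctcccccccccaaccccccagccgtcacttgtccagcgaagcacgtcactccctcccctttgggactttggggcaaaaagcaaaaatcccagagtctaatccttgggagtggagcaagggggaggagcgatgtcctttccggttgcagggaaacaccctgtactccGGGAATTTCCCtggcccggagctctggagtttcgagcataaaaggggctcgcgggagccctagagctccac
Cxcl2: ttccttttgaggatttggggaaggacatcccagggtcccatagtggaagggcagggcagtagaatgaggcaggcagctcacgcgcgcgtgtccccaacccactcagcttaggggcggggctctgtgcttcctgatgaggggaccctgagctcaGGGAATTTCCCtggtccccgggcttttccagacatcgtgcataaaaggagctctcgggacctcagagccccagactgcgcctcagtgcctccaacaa
Cxcl3: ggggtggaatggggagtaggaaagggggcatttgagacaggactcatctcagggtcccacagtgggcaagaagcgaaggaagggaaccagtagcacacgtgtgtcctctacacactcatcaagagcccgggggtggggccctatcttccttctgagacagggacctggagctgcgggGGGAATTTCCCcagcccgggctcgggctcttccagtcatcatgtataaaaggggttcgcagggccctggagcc
Cxcl10: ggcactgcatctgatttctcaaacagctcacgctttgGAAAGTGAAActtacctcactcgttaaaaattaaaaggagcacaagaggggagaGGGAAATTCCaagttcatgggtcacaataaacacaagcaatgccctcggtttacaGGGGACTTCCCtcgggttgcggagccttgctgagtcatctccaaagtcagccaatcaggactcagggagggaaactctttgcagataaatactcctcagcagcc

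Cxcl1, Cxcl2 and Cxcl3 held the same run, GGGAATTTCCC, which matches the κB consensus once on each strand, with its first base at position -71, -97 and -73 counted from the start site. Cxcl10 held a κB match starting at -159, a group of overlapping κB matches starting at -104, and 1 ISRE match, GAAAGTGAAA, starting at -213. Cxcl9 held no match to any of these 3 motifs, and the STAT6 site was found in none of the 5 windows. Among all 32851 windows of this length, 7.25% held a κB match, 2.98% an ISRE match and 5.85% the STAT6 site. A match describes letters only, and binding was not measured in these samples.

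**Figure D1:**
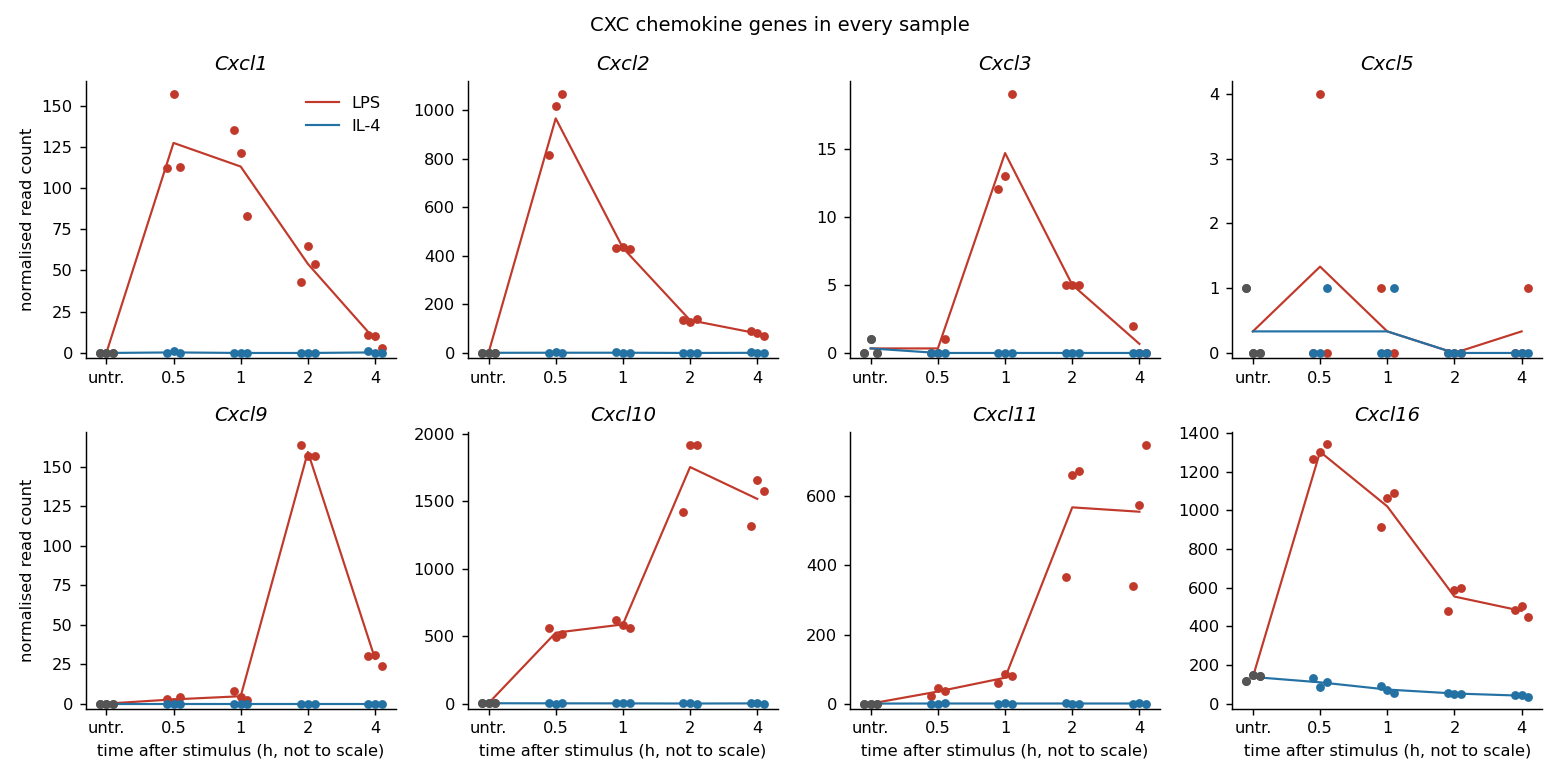
Normalised read counts of the 8 genes in every sample, on a linear axis that differs between panels. Grey points are untreated, red LPS and blue IL-4 samples (n = 3 per group), and lines join the group means. Cxcl1, Cxcl2 and Cxcl16 were highest at LPS 0.5 h, Cxcl3 at 1 h, and Cxcl9, Cxcl10 and Cxcl11 at 2 h, while Cxcl5 never exceeded 4.

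With LPS, 6 of the 7 tested genes were higher than in untreated cells by 0.5 h, all 7 in the 1 h and 2 h groups and 6 after 4 h. None was lower by limma, whether the p of 0.05 was adjusted or not. Over all tested genes, the share that was higher came to 19.6%, 24.8%, 26.9% and 25.9% in the order of the 4 times, and the share that was lower to 34.4%, 39.0%, 39.0% and 37.6%. The members' median difference was 5.12, 6.23, 6.42 and 4.87 on the log2(value + 1) scale over these times, against -0.24, -0.30, -0.29 and -0.26 for all tested genes. Scaling the samples to equal totals moved the latter medians to -0.75, -0.89, -0.95 and -0.87, with 11.4% to 16.9% of genes higher and 52.9% to 58.3% lower. Median-of-ratios scaling gave 25.9% to 32.6% higher and 27.3% to 32.6% lower. No called member changed direction under either. Cxcl3 was the gene missing at 0.5 and 4 h. In the F test over the course 7 of 7 passed, as did 87.6% of all tested genes. In bulk RNA, fewer cells of a type and less RNA per cell cannot be told apart.

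Cxcl2, a chemoattractant of neutrophils also known as MIP-2, was the strongest of its branch. Its normalised read counts were 1, 0 and 1 in the 3 untreated samples and 817, 1017 and 1068 at LPS 0.5 h. They were 434, 437 and 429 at 1 h, then 136, 127 and 142 at 2 h and 91, 83 and 68 at 4 h. No LPS group overlapped another, and each later group lay below the one before. The difference from untreated was 9.24 (SE 0.22, adjusted p = 9.11e-14, limma) at 0.5 h and 5.67 (adjusted p = 7.75e-12) at 4 h on the log2(value + 1) scale, which depends on the pseudocount because the untreated values are near 0. The steps down were -1.15 to 1 h (adjusted p = 0.000596) and -1.68 to 2 h (adjusted p = 1.77e-05). The last step, -0.74 from 2 to 4 h, had an adjusted p of 0.0255, which became 0.0533 without replicate 2 and 0.297 without replicate 3.

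Cxcl1, known as KC, binds the same receptor and started from values listed at 0 in all 3 untreated samples. It reached 112, 157 and 113 at LPS 0.5 h and 135, 121 and 83 at 1 h, then stood at 43, 65 and 54 at 2 h and at 11, 10 and 3 at 4 h. The 0.5 and 1 h samples overlapped, with a difference of -0.18 (adjusted p = 0.703), whereas Cxcl2 had already fallen to 44.8% ± 0.418 (SD, n = 3) of its highest mean by 1 h. The fall of Cxcl1 from 1 to 2 h was -1.04 (adjusted p = 0.0276), and the adjusted p was 0.145 without replicate 1 and 0.128 without replicate 2. From 2 to 4 h it fell by 2.75 on the log2(value + 1) scale (adjusted p = 5.09e-05). Its 4 h samples were still above untreated by 3.01 on that scale (adjusted p = 2.43e-06).

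Cxcl3, another neutrophil attractant, was scarce and later than its neighbours. It was listed at 0, 1 and 0 in untreated cells and at 0, 0 and 1 at LPS 0.5 h, when Cxcl1 and Cxcl2 were at their highest. It reached 12, 13 and 19 at 1 h, then 5 in each replicate at 2 h and 2, 0 and 0 at 4 h. The rise from 0.5 to 1 h was 3.61 on the log2(value + 1) scale (adjusted p = 1.48e-05). Cxcl3 met the filter with these 3 samples alone, and its falls to 2 h (-1.36, adjusted p = 0.0289) and to 4 h (-2.06, adjusted p = 0.00511) both passed the threshold. Without replicate 2 their adjusted p was 0.116 and 0.107, and without replicate 3 it was 0.192 and 0.111.

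Cxcl5, the remaining neutrophil attractant, was listed at 0 in 21 of the 27 samples. Its highest value was 4, in replicate 2 of LPS 0.5 h, and every other value was 0 or 1. A change in Cxcl5 could not be detected at these values. The deposited scale gives no read depth, so no limit in reads can be put on it.

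Cxcl10, also called IP-10, was the most abundant of the interferon-inducible genes and the earliest of them. It stood at 3, 3 and 2 in untreated cells and at 563, 496 and 518 at LPS 0.5 h. It was 617, 585 and 559 at 1 h, then 1424, 1917 and 1920 at 2 h and 1313, 1661 and 1579 at 4 h. The course therefore had 2 levels, a first one at 0.5 and 1 h, which overlapped (difference 0.16, adjusted p = 0.396), and a second at 2 and 4 h, which overlapped too (-0.20, adjusted p = 0.38). The step between them was 1.56 on the log2(value + 1) scale (SE 0.15, adjusted p = 4.59e-07), a 2.99-fold rise of the mean. Against untreated cells the difference was 7.18 at 0.5 h (adjusted p = 2.34e-14) and 8.90 at 2 h (adjusted p = 1.87e-15).

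Cxcl11 is the ligand known for the highest affinity for Cxcr3, although in C57BL/6 mice a frameshift is known to prevent its protein, so the RNA alone is described. It was listed at 0 in untreated cells. It was 23, 46 and 36 at LPS 0.5 h and 60, 86 and 79 at 1 h, then 368, 663 and 674 at 2 h and 342, 575 and 750 at 4 h. The groups at 0.5, 1 and 2 h did not overlap, while those at 2 and 4 h did. The step from 0.5 to 1 h was 1.12 (adjusted p = 0.00735), and its adjusted p was 0.0507 without replicate 2 and 0.0663 without replicate 3. The step from 1 to 2 h was 2.87 (adjusted p = 1.8e-06), and from 2 to 4 h it was -0.05 (adjusted p = 0.934). In both Cxcl10 and Cxcl11, replicate 1 was the lowest of the 3 at 2 h and at 4 h.

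Cxcl9, also called MIG and known mainly as a target of interferon-γ, had the sharpest maximum. It was listed at 0 in untreated cells, at 3, 1 and 4 at LPS 0.5 h and at 8, 4 and 2 at 1 h. At 2 h it reached 164, 157 and 157, and at 4 h it was back to 30, 31 and 24. The rise from 1 to 2 h was 4.97 (adjusted p = 6.62e-08) and the fall from 2 to 4 h -2.46 (adjusted p = 0.000337) on the log2(value + 1) scale. The small difference at 0.5 h, 1.77 (adjusted p = 0.00141), became 0.40 (adjusted p = 0.0705) with a pseudocount of 8. Between 2 and 4 h Cxcl9 fell to 17.8% ± 2.38 of its highest mean, Cxcl10 stood at 86.5% ± 10.4 and Cxcl11 at 97.8% ± 36.0 (SD, n = 3).

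**Figure D2:**
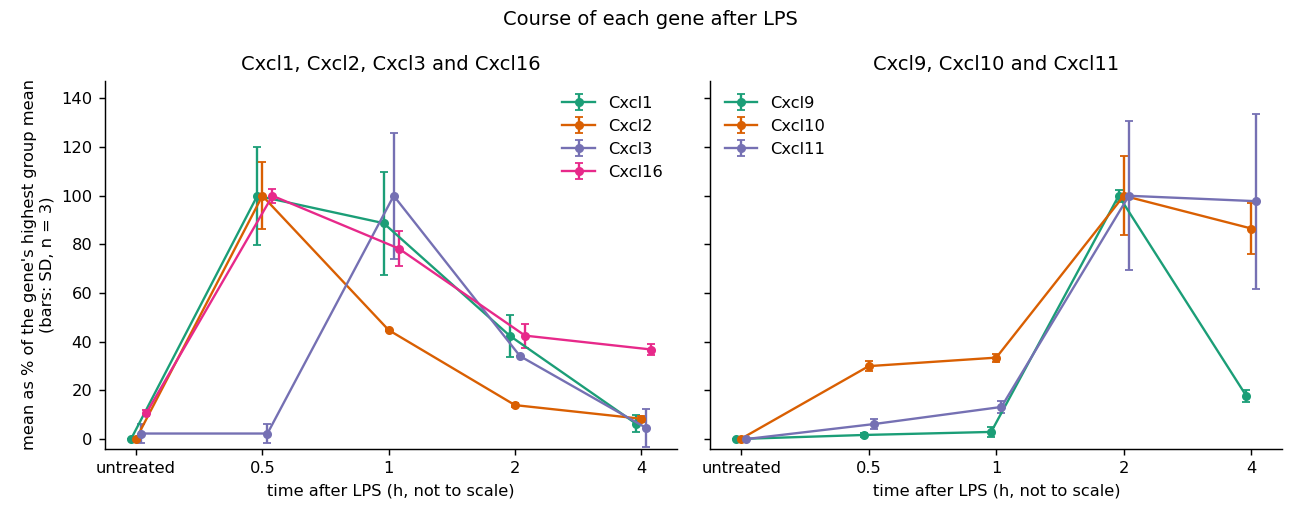
Group mean of each tested gene after LPS as a percentage of that gene's highest group mean (bars: SD, n = 3), with time points evenly spaced. At 4 h Cxcl1, Cxcl2 and Cxcl3 stood at 6.28%, 8.34% and 4.55%, Cxcl9 at 17.8% and Cxcl16 at 36.8%, while Cxcl10 and Cxcl11 stood at 86.5% and 97.8%.

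Cxcl16 was the only member with a clear level in untreated cells, at 119, 150 and 144. LPS raised it to 1264, 1302 and 1341 at 0.5 h, a 9.46-fold higher mean (log2 difference 3.24, SE 0.12, adjusted p = 8.47e-12). It was 912, 1061 and 1087 at 1 h. The 2 h samples held 480, 585 and 596, and those of 4 h 484, 506 and 448, which was still 3.48-fold above untreated (1.80, adjusted p = 3.24e-09). Like Cxcl2 it was highest at 0.5 h, but it kept 36.8% ± 2.25 of that mean at 4 h (SD, n = 3) where Cxcl2 kept 8.34% ± 1.21. The largest step down, from 1 to 2 h, was -0.88 (adjusted p = 2.12e-05). The step from 0.5 to 1 h, -0.36 (adjusted p = 0.0228), had an adjusted p of 0.129 without replicate 2 and 0.12 without replicate 3. The 2 and 4 h samples overlapped, with a difference of -0.20 (adjusted p = 0.264, and 0.0162 without replicate 1).

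The question of early against late members was then put as the difference between LPS 4 h and LPS 0.5 h. Between these times the log2(value + 1) difference was -3.97 (95% confidence interval -4.73 to -3.21, adjusted p = 1.13e-07) for Cxcl1, -3.57 (-4.05 to -3.09, adjusted p = 1.74e-09) for Cxcl2 and -1.44 (-1.70 to -1.18, adjusted p = 4.85e-08) for Cxcl16, all lower at 4 h. Cxcl9 was higher by 3.09 (2.25 to 3.93, adjusted p = 5.3e-06), Cxcl10 by 1.52 (1.21 to 1.84, adjusted p = 2.79e-07) and Cxcl11 by 3.93 (3.27 to 4.59, adjusted p = 2.4e-08). Cxcl3, low at both times, differed by 0.19 (adjusted p = 0.738). Among all tested genes 32.3% were higher and 30.8% lower at 4 h than at 0.5 h, so a gene moving either way was common in these cells. The 3 interferon-inducible genes were the 3 members higher at 4 h, and no neutrophil attractant was among them.

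Step by step, from 0.5 to 1 h Cxcl3 and Cxcl11 rose while Cxcl2 and Cxcl16 fell, beside 25.1% and 24.6% of all tested genes. From 1 to 2 h each of the 7 genes passed the threshold: Cxcl9, Cxcl10 and Cxcl11 rose (21.5% of all genes) and Cxcl1, Cxcl2, Cxcl3 and Cxcl16 fell (21.8%). From 2 to 4 h Cxcl1, Cxcl2, Cxcl3 and Cxcl9 fell (11.5%) and none rose by limma, with or without adjustment of the p of 0.05 (11.4%). Cxcl9 thus shared the rise of its branch and the fall of the other.

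**Figure D3:**
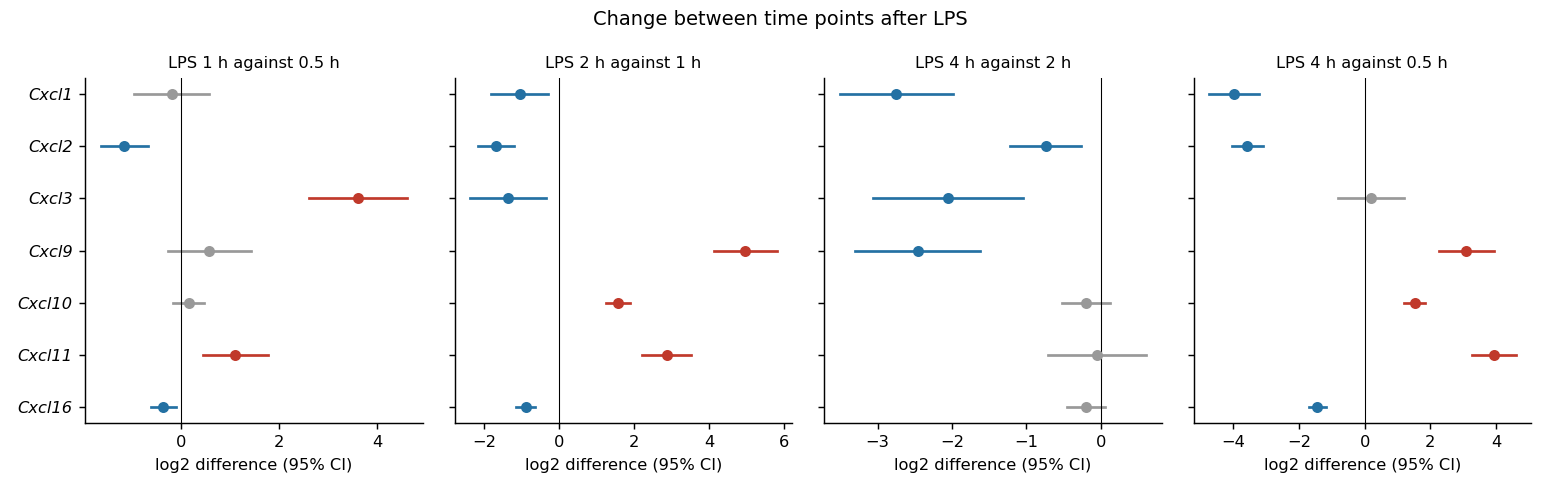
Differences on the log2(value + 1) scale between LPS time points for the 7 tested genes, with 95% confidence intervals. Red points were higher and blue points lower at an adjusted p under 0.05 (limma), and grey points did not pass. Between 1 and 2 h the interferon-inducible genes lie to the right of 0 and the other 4 to the left.

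Levels can be compared between genes only per length. Per kb of gene span, the highest group mean of normalised read counts was 779 ± 127 for Cxcl10, 474 ± 65.0 for Cxcl2, 233 ± 6.88 for Cxcl16, 151 ± 46.3 for Cxcl11, 67.8 ± 13.7 for Cxcl1, 23.6 ± 0.599 for Cxcl9, 7.36 ± 1.90 for Cxcl3 and 0.573 ± 0.992 for Cxcl5 (SD, n = 3). No neighbours in this order came within 1 SD of each other. Both branches thus held an abundant gene and a scarce one, and Cxcl9 lay below Cxcl1 even at its maximum. Reads with several hits had been removed by the authors, so any sequence shared between the similar genes Cxcl1, Cxcl2 and Cxcl3 was left uncounted, by an amount not measured here.

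Cxcl10 and Cxcl11 both lie whole inside Art3, a gene of 82.8 kb on the opposite strand. The value of Art3 was at or above the sum of Cxcl10 and Cxcl11 in all 27 samples, and that sum made up 91.1% to 97.0% of it in the 12 LPS samples. According to GENCODE M21, Cxcl11 has 0 bases and Cxcl10 133 bases in exons of Art3. The remainder of Art3 was 29 to 146 in LPS samples, or 0.378 to 1.90 per kb, against at least 220.2 per kb for Cxcl10 and 6.13 for Cxcl11. Reads over the 2 chemokine genes therefore appear to be included in the count of Art3, across introns and on either strand. Reads of Art3 can enter theirs too, though per kb its remainder lay below both in the LPS samples.

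**Figure D4:**
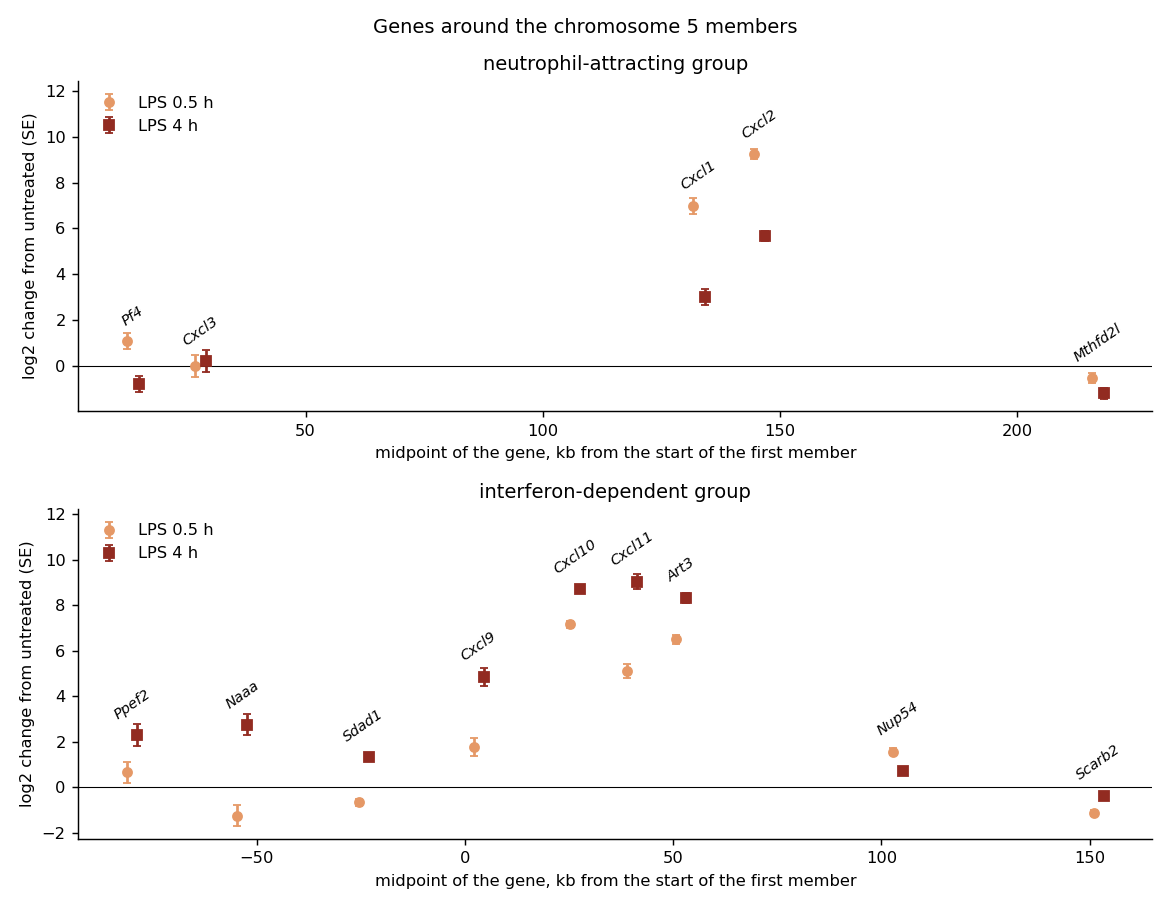
Change from untreated on the log2(value + 1) scale (bars: SE) at LPS 0.5 h (circles) and 4 h (squares) for the tested genes within 100 kb of the chromosome 5 members, by distance of the gene's midpoint from the member with the lowest coordinate. Cxcl1 and Cxcl2 lie between Pf4 and Mthfd2l, which ran from -1.21 to 1.07, while Art3 follows Cxcl10 and Cxcl11, which it contains.

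Within 100 kb of the neutrophil-attracting genes lay 5 other genes, of which 2 were tested. Pf4, itself a CXC chemokine of platelets, was higher by 1.07 at LPS 0.5 h (adjusted p = 0.0175), and Mthfd2l, a mitochondrial folate enzyme, was lower at 4 h (-1.21, adjusted p = 0.000291). Around the interferon-inducible genes lay 10 others, of which 6 were tested and 5 were higher at LPS 2 h and at 4 h. These include Art3, whose count appears to hold the reads of Cxcl10 and Cxcl11, so it is not a separate neighbour. Apart from Art3 these were Naaa (2.42 at 2 h, adjusted p = 0.00025), Ppef2 (2.12, 0.000939), Sdad1 (1.94, 7.17e-08) and Nup54 (1.77, 6.45e-08), beside 26.9% of all tested genes. At LPS 0.5 h Naaa (-1.25, adjusted p = 0.0312), Sdad1 (-0.66, 0.00406) and Scarb2 (-1.13, 9.44e-06) were lower, beside 34.4% of all tested genes. Nup54 (1.57, 6.34e-07) and Art3 (6.50, 2.36e-12) were higher, as were Cxcl10 and Cxcl11. With IL-4 too, Naaa and Sdad1 were higher at each time and Ppef2 at 2 and 4 h. Scarb2 was lower at each IL-4 time and Art3 at 2 h. Of the neighbours of the neutrophil-attracting genes, Mthfd2l was lower at IL-4 2 and 4 h and Pf4 at 4 h. Over all tested genes 8.15% to 14.3% were higher and 8.14% to 13.2% lower with IL-4.

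IL-4 raised none of the 7 tested genes at any time, by limma at a p of 0.05 with or without adjustment, where 8.15%, 11.1%, 14.3% and 13.4% of all tested genes rose in the order of the 4 times. Cxcl3 and Cxcl9 were listed at 0 in all 12 IL-4 samples, Cxcl1 and Cxcl11 never exceeded 1, and Cxcl10 lay between 0 and 5. Cxcl2 lay between 0 and 3. With untreated values this near 0, a fall of these 6 genes could hardly be seen: Cxcl10 went from 3, 3 and 2 to 1, 1 and 0 at IL-4 2 h, without overlap, and its difference of -1.19 had an adjusted p of 0.17.

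Cxcl16 was the member that fell with IL-4. From 119, 150 and 144 in untreated cells it went to 134, 86 and 110 at 0.5 h, which overlapped, and to 91, 72 and 55 at 1 h, which did not. It was 57, 49 and 51 at 2 h and 44, 45 and 34 at 4 h, where the mean was 3.36-fold lower than untreated. The log2 difference was -0.34 (adjusted p = 0.3) at 0.5 h, -0.93 (adjusted p = 0.00334) at 1 h, -1.37 (adjusted p = 0.000129) at 2 h and -1.73 (SE 0.20, adjusted p = 1.97e-05) at 4 h. At 1 h the adjusted p was 0.0837 without replicate 2 and 0.119 without replicate 3, and at 0.5 h it was 0.0468 without replicate 1. Over all tested genes the share that fell was 8.14%, 9.83%, 13.2% and 12.5% in the same order. Between IL-4 0.5 h and 4 h Cxcl16 fell by 1.39 on the log2 scale (adjusted p = 0.00016, beside 12.7% of all genes). No single step passed in this fit, with -0.60 to 1 h (adjusted p = 0.0842, unadjusted 0.00904), -0.44 to 2 h (0.213, unadjusted 0.0424) and -0.35 to 4 h (0.383, unadjusted 0.0944), where 3.61%, 5.37% and 3.09% of all genes fell. Tested for any change over the IL-4 times, Cxcl16 passed the F test (adjusted p = 4.5e-05) and the other 6 did not (1 of 7, beside 40.3% of all tested genes).

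The first 552 bases of Cxcl16 overlap Zmynd15, a zinc finger gene on the opposite strand, and the 2 genes could share reads there. Zmynd15 was 78.3 ± 14.4 in untreated cells and 80.7 ± 8.14, 57.3 ± 13.5, 32.3 ± 4.73 and 21.3 ± 5.69 over the IL-4 times (SD, n = 3). Its log2 difference was 0.05 (adjusted p = 0.926), -0.45 (0.18), -1.25 (0.000776) and -1.85 (3.18e-05), so it too fell at 2 and 4 h. With LPS it was higher at each time, by 1.86, 2.04, 1.04 and 1.05. The part of shared reads in either gene was not tested.

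**Figure D5:**
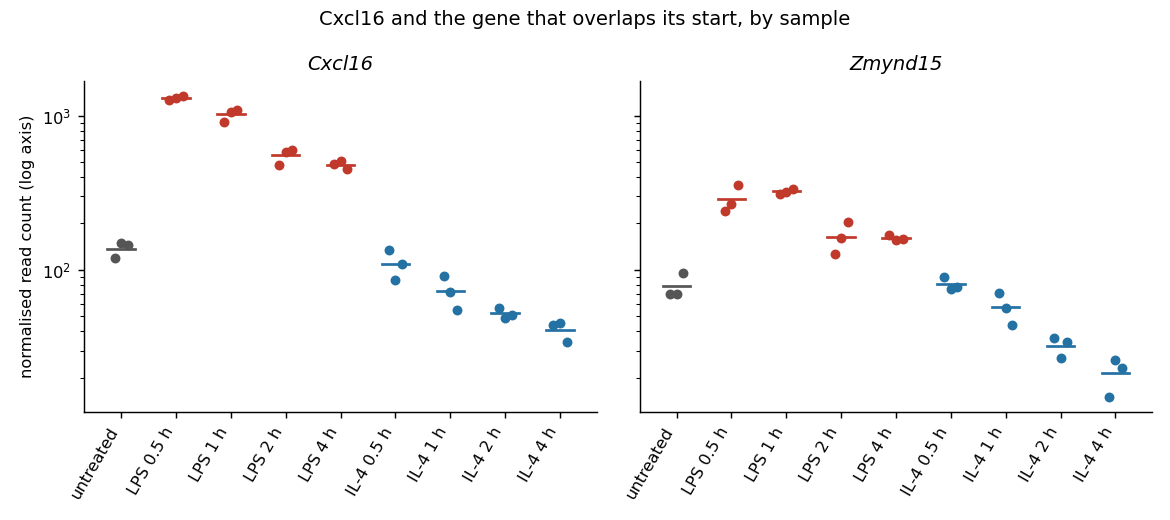
Normalised read counts of Cxcl16 and of Zmynd15, which overlaps its start, in every sample on a log axis, with bars at the group means (n = 3). Cxcl16 ran from 34 to 134 in IL-4 samples and from 448 to 1341 in LPS samples, and both genes were lowest at IL-4 4 h.

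Set against each other at the same time in one fit of all 27 samples, LPS was higher than IL-4 in 6, 7, 7 and 6 of the 7 genes in the order of the 4 times, beside 18.0%, 24.0%, 26.4% and 26.1% of all tested genes. Cxcl16, the one gene with a level under both stimuli, was 11.8-fold higher with LPS at 0.5 h, 14.0-fold at 1 h, 10.6-fold at 2 h and 11.7-fold at 4 h. On the log2 scale these were differences of 3.58, 3.82, 3.37 and 3.52. Whether the gap differed between times was not tested.

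Genes of the pathways that act on these chemokines were taken from lists. Of 13 NF-κB pathway genes 11 were higher at each LPS time, among them Nfkbia, the inhibitor IκBα (5.10 at 0.5 h, adjusted p = 4.74e-12), and 2, 1, 1 and 0 were lower. Of 14 type I interferon pathway genes 7, 12, 12 and 11 were higher and 2, 0, 1 and 0 lower in the order of the LPS times, where 19.6% to 26.9% of all tested genes were higher and 34.4% to 39.0% lower. Ifnb1, which encodes interferon-β, was listed at 0 in untreated cells, lay between 2 and 10 at 0.5 h and between 5 and 17 at 1 h, and was at most 2 afterwards. With IL-4, 3, 2, 3 and 2 of the NF-κB genes were higher and 1 lower at each time, and 2, 3, 3 and 3 of the interferon genes were higher and 1, 2, 2 and 2 lower. Over all tested genes 8.15% to 14.3% were higher and 8.14% to 13.2% lower with IL-4, and these small counts are not read as a result about either list.

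Of 8 CXC receptor genes 3 were tested. In the order of the LPS times 0, 0, 1 and 1 were higher, and 1 was lower at each. In the order of the IL-4 times 0 were higher at each, and 1, 1, 1 and 2 were lower. Over all tested genes 19.6% to 26.9% were higher and 34.4% to 39.0% lower with LPS. With IL-4 these shares were 8.15% to 14.3% and 8.14% to 13.2%. Cxcr4, the receptor of Cxcl12, fell from 71.7 ± 18.5 in untreated cells to 0.333 ± 0.577 at LPS 4 h (-5.82, adjusted p = 6.67e-09). Cxcr2, which the neutrophil attractants bind, ran from 8 to 11 in untreated cells and from 17 to 25 at LPS 4 h (1.04, adjusted p = 0.00484). Cxcr6, the partner of Cxcl16, was lower at LPS 0.5 h (-0.73, adjusted p = 0.0362) and at IL-4 4 h (-0.88, adjusted p = 0.0289). Cxcr3, the receptor of the interferon-inducible branch, never exceeded 3.

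The 2 proteases that shed Cxcl16 moved apart with LPS. Adam17 was higher at each time, by 2.62, 2.41, 1.69 and 2.01, and Adam10 was lower (-0.60, -0.92, -1.18 and -1.30), all past the threshold. With IL-4 Adam17 was lower at 0.5, 1 and 2 h (-0.47, -0.67 and -0.90), and Adam10 was higher at 1 h (0.52, adjusted p = 0.0475). At IL-4 4 h, where Cxcl16 was lowest, neither passed (Adam17 -0.37, adjusted p = 0.0798, Adam10 0.13, adjusted p = 0.634). Of 5 genes known to act in the decay of chemokine mRNAs, 2, 3, 3 and 2 were higher in the order of the LPS times and 2 were lower at each. Over all tested genes 19.6% to 26.9% were higher and 34.4% to 39.0% lower. Zfp36, which encodes tristetraprolin, and Zc3h12a, which encodes Regnase-1, were higher at each LPS time (3.73 and 2.03 at 0.5 h). Zfp36l2 was lower at each LPS time (-2.36 at 0.5 h and -4.65 at 4 h). Of 7 further CXC chemokines only Pf4 passed the filter.

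By likeness of their 9 group means on the log2(value + 1) scale (Pearson's r, a description over points that share the authors' scaling), the gene nearest to Cxcl1 was Relb (0.994), and those nearest to Cxcl2 were Orai2 (0.994) and Nfkbie (0.988). Kcnn4 (0.985) and Frs2 (0.962) were nearest to Cxcl3. For Cxcl9 they were Msantd2 (0.983) and Trip12 (0.982), for Cxcl10 Dusp2 (0.995) and Cpeb4 (0.994), and for Cxcl11 Clec2d (0.996) and Ppp2r1a (0.996). Cd14, the LPS co-receptor (0.991), and Nfkbiz (0.990) were nearest to Cxcl16. Among the members themselves the likeness followed the branches only in part. Cxcl1 and Cxcl2 reached 0.979, but Cxcl3, low in all groups, reached 0.727 with Cxcl1 and 0.646 with Cxcl2. Cxcl10 and Cxcl11 reached 0.976, Cxcl9 and Cxcl11 0.937 and Cxcl9 and Cxcl10 0.869. Across branches, Cxcl2 and Cxcl10 reached 0.935, Cxcl1 and Cxcl10 0.891 and Cxcl1 and Cxcl9 0.652. Cxcl16, which belongs to neither branch, reached 0.971 with Cxcl2.

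The label of macrophages was checked on marker genes. All 8 macrophage markers passed the filter, with summed values of 11120 to 13024 in untreated, 10014 to 17867 in LPS and 18194 to 29180 in IL-4 samples. Of 8 neutrophil markers 1 passed (sums 5 to 11, 8 to 88 and 5 to 22, Ly6g at 0), of 7 stromal markers 3 (39 to 92, 44 to 282 and 29 to 211, Lum at 0), of 4 endothelial markers 2 (44 to 50, 55 to 198 and 33 to 119) and of 4 dendritic cell markers 2 (6 to 9, 5 to 98 and 11 to 24, Xcr1 at 0). None of the B cell, T and NK cell or mast cell markers passed, and their sums never exceeded 7. The highest sums of the neutrophil, stromal, endothelial and dendritic cell lists were in LPS samples, and their part in the chemokine values was not tested. The sum of all normalised read counts, which is not a depth, was 2469768 to 2790981 in untreated and IL-4 samples and 3571492 to 4058199 in LPS samples.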

How the data were processed

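Chromatin-associated RNA was measured in 27 samples, in 9 groups of 3 replicates taken from the labels. As the study's methods state, the authors made Smart-seq2 libraries primed with random hexamers, sequenced single-end. According to the submitters' processing notes they used TopHat2 2.1.1 and bedtools 2.29.2, with R 3.6.2 and DESeq2, on mm10. Reads with several hits were removed, counted per gene (GRCm38.p6) and scaled by the authors on invariant genes. What they deposited is a table of those scaled counts in whole numbers, here handled as a score, since count models need raw reads. Such values give no sequencing depth, so the precision is that of the replicates. Strand use in counting was not given in the sources used here.

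Tests used limma 3.58.1 (R 4.3.3) on log2(value + 1), with a mean-variance trend and Benjamini-Hochberg adjustment over 13901 genes at a threshold of 0.05. The LPS and the IL-4 course were each fitted with the 3 untreated samples, which both share, and all 27 samples were fitted to compare the stimuli. The fit was also run on simulated data, in which no gene started from values near 0. Most members do so here, and that run does not cover them. Fold changes on this scale understate low genes, and folds given as such are ratios of group means.

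The members and the gene lists were chosen with earlier results of these data known. The lists, written from general knowledge, covered further CXC chemokines, CXC receptors, shedding proteases, NF-κB, type I interferon, mRNA decay and cell type markers. Named genes were the members, the list genes described, for each member the 2 genes most like it (among genes with a highest group mean of at least 50 and no annotated overlap), and tested genes within 100 kb on chromosome 5 called at any time. The study's impulse model was not run, and protein sequences were not used here. Some genes and motifs that the named-gene rule and the lists cover are not reported here. The 11 alternatives concerned the pseudocount (0.5 or 8), the filter (none, or a mean of at least 50), the scaling (median-of-ratios or equal totals), a replicate block, leaving out each replicate, and averaging replicates 2 and 3.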

Additional observations from a re-analysis of the deposited data

How the results depend on the processing

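Of 1460 member values recomputed under the 11 alternatives, 1430 kept their side of the threshold, 27 lost a call and 3 gained one. No called value reversed its direction. Values called in neither fit were counted as kept even where their sign changed, as it did for Cxcl3 at LPS 0.5 h against untreated. Without a filter, 2 instead of 4 members fell from LPS 1 to 2 h. A mean of at least 50 left 4 members to test: 4 were higher at LPS 1 h, 4 at 2 h, 4 against IL-4 at 1 h and 4 at 2 h, 1 rose from 0.5 to 1 h, 2 fell from 1 to 2 h and 1 from 2 to 4 h. At equal totals, which left 6, 1 rose from 0.5 to 1 h and 2 fell from 2 to 4 h. With replicates 2 and 3 averaged, 1 rose and 1 fell from 0.5 to 1 h, 2 fell from 2 to 4 h and 0 fell at IL-4 1 h (against 1 as reported, Cxcl16, adjusted p = 0.0701). Leaving out 1 replicate gave 1 to 2 members rising and 1 to 2 falling from LPS 0.5 to 1 h, 2 to 3 falling from 1 to 2 h, 2 to 5 falling from 2 to 4 h, 0 to 1 lower at IL-4 0.5 h and 0 to 1 at IL-4 1 h. These fits have fewer samples, and apart from that the cause was not tested. The steps that lost their call when 1 replicate was left out are named with their values beside each gene. Some steps also lost it with all samples kept (limma). The fall of Cxcl2 from LPS 2 to 4 h did so at a pseudocount of 0.5 (adjusted p = 0.102), without a filter (0.0735) and at equal totals (0.0574). From 1 to 2 h the fall of Cxcl3 did so at a pseudocount of 0.5 (0.103) and without a filter (0.0632). That of Cxcl1 did so without a filter (0.0753). The counts over the gene lists were recomputed too, 96 per alternative, and moved by over 1.5 times in between 0 and 23 of them.

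Replicate numbers 1 to 3 recur in all groups. Same-numbered samples correlated over 0.1 in 106 of 108 pairs, with a lowest value of 0.0897 and a median of 0.308. Over 216 pairs of different numbers the median was -0.309 (the 3 deviations of a group sum to 0). Of these, 70 were over 0.1, up to 0.390, so the replicates may not be equally independent. Only 19 of 27 samples correlated best with their own number, so the numbers were not taken to pair the samples. A replicate block added 1 call, Cxcl16 lower from IL-4 0.5 to 1 h (-0.60, adjusted p = 0.0354, against 0.0842 without it), and changed no other member's call. The median-of-ratios scaling changed no member's call. The deposited values carry no depth, so how far counting noise limits Cxcl3, Cxcl5 and the untreated values near 0 is unknown.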
